A study of Caenorhabditis elegans with 2 samples.

Results

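The autophagy, lysosomal protease and V-ATPase genes of Caenorhabditis elegans were picked by gene symbol alone: every atg-, lgg-, vha-, cpr-, cpl-, asp- and lmp- gene, together with bec-1, unc-51, epg-5 and sqst-1. That gave 67 of the 19973 nuclear protein-coding genes of the annotation. They comprised 19 autophagy genes, 20 V-ATPase genes, 26 genes for cathepsin and aspartyl proteases and 2 genes for lysosomal membrane proteins. The rule names no measured value, although the genes were proposed with earlier results of these data known.

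The measurement was chromatin immunoprecipitation with sequencing of DAF-16 in 2 biological replicates of a single group, so no conditions were compared. Both replicates came from hermaphrodites at the L4 larval stage, taken 54 h after synchronization from starved first-stage larvae. Their strain, ZM8745, carried the alleles daf-16(mu86) and daf-2(e1370) together with the transgene hpSi15, in which Pges-1 drives GFP::daf-16a, and the antibody was raised against GFP. The mu86 allele deletes part of the worm's own daf-16, while e1370 lowers the function of daf-2, which encodes the insulin receptor. Both replicates shared these alleles. Pges-1 is an intestinal promoter, so the tagged protein was a transgene product placed in the intestine, while whole animals were used for the chromatin. The labels do not settle which end of the protein bears the tag. Lists of peak entries were available for each replicate, for the pooled replicates and for the optimal set, which is the part of the pooled list kept after a threshold on irreproducible discovery rate. The pooled list held 30000 entries, replicate 1 held 28175 and replicate 2 held 22676, and these 3 lists hold peaks and background by their own title. The optimal set held 1489 entries, which were the 1489 of highest signal in the pooled list, and its lowest signal was 84.3. Signal is the authors' value per entry, on a scale that the sources used here do not state, so it served to rank entries and was read only within a list. Ranks count from 1 at the highest signal. The lists give no read counts, so the depth is unknown.

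Autophagy encloses cytoplasm in a double membrane, the autophagosome, which then fuses with a lysosome. The V-ATPase is a proton pump: its membrane V0 sector passes the protons that its peripheral V1 sector drives by splitting ATP, and the acid it makes lets cathepsins and aspartyl proteases work. DAF-16, the worm's FOXO transcription factor, enters nuclei when signalling by the insulin receptor DAF-2 is low, and the worm's intestine is rich in lysosome-related organelles and in secreted digestive proteases, some of which belong to the same gene families.

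A gene was counted at its promoter when the summit of an entry lay between 1000 bp upstream and 500 bp downstream of any of its transcript starts. Of the 67 members, 9 had an optimal summit there, which is 13.4% (exact 95% binomial interval 6.33% to 24.0%, for counting error only), against 4.2% of all protein-coding genes. The 9 were lgg-1, lgg-2 and atg-3 among the autophagy genes, vha-2 among the V-ATPase genes, and cpr-4, cpr-6, cpr-9, cpl-1 and asp-12 among the proteases. A pooled entry of any signal lay at 51 members, or 76.1%, against 45.6% of all protein-coding genes. The highest pooled signal had a median of 41.7 over those 51 members and of 36.9 over the 9109 genes with an entry. Within the optimal set the median of the members' highest signal was 117, against 114 over all 839 genes with an optimal summit. These shares and medians describe the list. No test was run on them, because of how the genes came to be proposed.

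**Figure D1:**
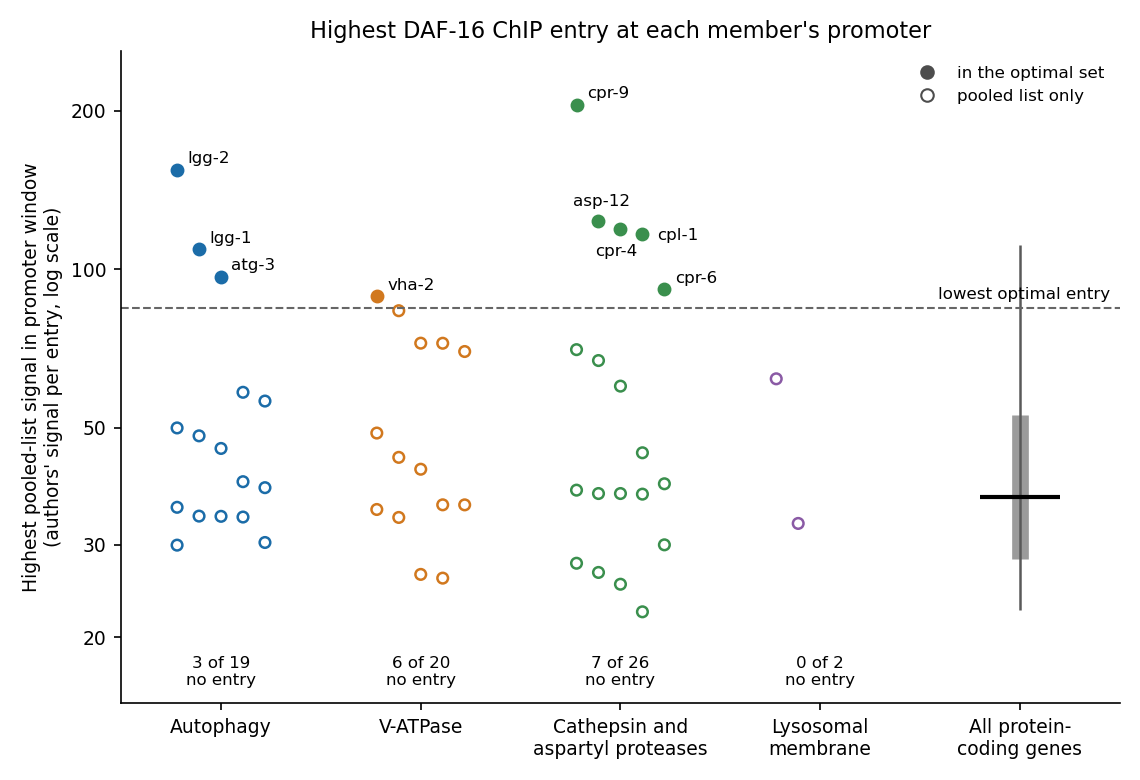
Highest pooled-list signal in each member's promoter window (log scale), by class, with the median (line), quartiles (thick bar) and 5 to 95 percentile range (thin line) of all protein-coding genes with an entry at the right. Filled points are the 9 members in the optimal set, all above its lowest signal of 84.3, and the members without an entry are counted under each class.

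Among the autophagy genes, the 2 that encode the Atg8 ubiquitin-like proteins, lgg-1 and lgg-2, carried the highest signals. LGG-1 is the GABARAP-type and LGG-2 the LC3-type Atg8 protein, and both become attached to autophagosome membranes. At lgg-2 the promoter entry had a signal of 88.1 in replicate 1, where it ranked 417, and of 68.6 in replicate 2, where it ranked 479. The replicates placed that summit within 4 bp of each other, and in the optimal set it ranked 422 with a signal of 155, 360 bp upstream of the start. At lgg-1 the promoter entry had a signal of 50.5 in replicate 1 (rank 1486) and of 71.4 in replicate 2 (rank 430), and it ranked 906 with a signal of 109 in the optimal set, 860 bp upstream (chrII:6348369-6348788, ce11). Replicate 1 thus placed lgg-1 just inside its 1489 highest entries while replicate 2 placed it far inside. A further optimal summit lay 151 bp past the annotated end of lgg-1, and it was higher in both replicates than the promoter one: its signal was 92.5 in replicate 1 (rank 361) and 74.2 in replicate 2 (rank 397). That summit also lay in the promoter window of the gene C32D5.8, 845 bp upstream of its start. The 101 bases around 2 of these summits are shown on the gene's strand (RefSeq genome WBcel235, the ce11 build), because the lgg-1 one held a DAF-16 binding element, written in capitals, and the lgg-2 one held none of the motifs searched.
lgg-1 past the gene end, chrII:6346759-6346859, minus strand: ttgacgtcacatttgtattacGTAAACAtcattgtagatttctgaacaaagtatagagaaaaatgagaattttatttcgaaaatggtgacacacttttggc
lgg-2 promoter, chrIV:10936213-10936313, minus strand: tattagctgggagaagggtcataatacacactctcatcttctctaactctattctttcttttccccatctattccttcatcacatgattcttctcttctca

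The enzymes that attach Atg8 proteins to lipid were represented by 1 optimal gene. At atg-3, which encodes the E2-like enzyme of that reaction, the entry had a signal of 53.3 in replicate 1 (rank 1297) and of 42.7 in replicate 2 (rank 1385), and it ranked 1170 in the optimal set with a signal of 96.9. The entry, chrIV:1012395-1012814 on ce11, counted at the promoter only through an inner transcript start, 464 bp downstream of it. The same summit lay 2093 bp downstream of the outermost atg-3 start, 103 bp past the gene's end and 19 bp upstream of the start of the neighbouring gene rbm-39, so the entry cannot be given to either gene from position alone. The E1-like enzyme gene atg-7 had a pooled signal of 58.4 (rank 3211), with ranks of 3008 in replicate 1 and 9151 in replicate 2 at summits 513 bp apart. The Atg12-like gene lgg-3 had a pooled signal of 45.7 (rank 5921), and ranked 28089 in replicate 1 and 8701 in replicate 2. Its pooled summit also lay in the promoter windows of B0336.7 and rgs-5. The protease gene atg-4.2, whose family trims Atg8 proteins before they are attached, had no entry in any of the 4 lists.

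The genes that start autophagy or bring membrane to it lay lower. At bec-1, the Beclin gene of the lipid kinase complex, the pooled signal was 49.97 (rank 4651), with ranks of 6449 in replicate 1 and 3110 in replicate 2. At unc-51, the ULK-type kinase gene, it was 29.9 (rank 16442), and replicate 2 had no entry. The gene atg-18, which encodes a protein that binds the lipid made by that kinase complex, had a pooled signal of 56.2 (rank 3481), and both replicates placed its summit at the same base, 247 bp upstream. So bec-1 and atg-18 had entries in both replicates, all of them outside the highest 1489, and those of bec-1 lay 1257 bp apart, at different starts. The cargo receptor gene sqst-1, the worm p62, had a pooled signal of 33.99 (rank 12455) and no entry in replicate 2. No list had an entry at epg-5, whose product tethers autophagosomes to late endosomes and lysosomes. In all, 16 of the 19 autophagy genes had a pooled entry, against 45.6% of all protein-coding genes, and 13 had one in both replicates, against 28.4%. An optimal promoter summit lay at 3 of the 19, against 4.2%.

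Of the 20 V-ATPase genes, 14 had a pooled entry, against 45.6% of all protein-coding genes, and 1, vha-2, had an optimal promoter summit, a share near the 4.2% of all genes. By sector that was 1 of 9 V0 genes, 0 of 9 V1 genes and 0 of 2 accessory genes. vha-2 encodes a proteolipid subunit of the V0 ring. Its optimal entry ranked 1355 with a signal of 88.9. The replicate entries with the summit nearest to it had a signal of 21.2 in replicate 1 (rank 13715) and of 47.5 in replicate 2 (rank 1116). The highest replicate 1 entry of the window was another one, 96 bp downstream of the start, with a signal of 54.6 (rank 1221). Replicate 1 entries were usually 430 bp wide, so an entry of that width there would also cover the optimal summit. The low rank of the nearest entry therefore does not show that replicate 1 had little signal at the place. The summit of the optimal entry (chrIII:9782193-9782612, ce11) lay 239 bp downstream of the vha-2 start, in an intron, and 603 bp upstream of the neighbouring gene R10E11.6, whose promoter window also took it in. Just outside the optimal set came vha-8, the V1 subunit E gene, with a pooled signal of 83.4 at rank 1523 and ranks of 1601 in replicate 1 and 1923 in replicate 2. Its pooled summit also lay in the promoter window of C17H12.2. The lowest optimal entry of all, by comparison, had a signal of 84.3. Next came vha-20, an accessory gene, and vha-1, a proteolipid gene, both with a pooled signal of 72.4. The vha-1 summit also lay in the promoter window of sqv-3. The V0 gene vha-5 and the V1 gene vha-14 had no entry in any list, and 4 more V-ATPase genes lacked a pooled one.

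Optimal summits also lay just past the ends of genes. A window of 500 bp past the annotated end, chosen after the values were seen, held an optimal summit for 6 of the 67 members, or 8.96%, against 1.77% of all protein-coding genes. The 6 were lgg-1 and atg-3, described above, cpl-1, and the V-ATPase genes vha-2, vha-12 and vha-13. At vha-2 that summit, 160 bp past the end, had a signal of 85.5 in replicate 1 (rank 450) and of 49.7 in replicate 2 (rank 1007), and it ranked above the promoter one in both. It lay in a coding exon of R10E11.6, 56 bp downstream of that gene's start. At vha-12, which encodes the V1 subunit B, the summit 206 bp past the end had a signal of 68.7 in replicate 1 (rank 753) and of 29.8 in replicate 2 (rank 3189). At vha-13, which encodes the V1 subunit A, the summit 136 bp past the end had a signal of 72.8 in replicate 1 (rank 657) and of 29.9 in replicate 2 (rank 3177), and it lay in a coding exon of Y49A3A.3. Both of these were therefore among the highest 1489 entries in replicate 1 and outside them in replicate 2. When the highest entries of both replicates were required, 3 members kept a summit past their end, lgg-1, atg-3 and vha-2, which is 4.48% against 1.07% of all protein-coding genes. Several of these summits also lie at the start of the next gene, as at atg-3, vha-2 and vha-13, and a summit between close genes cannot be given to 1 of them by position. With promoter and gene end counted together, 11 members had an optimal summit, or 16.4%, against 5.55% of all protein-coding genes.

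**Figure D2:**
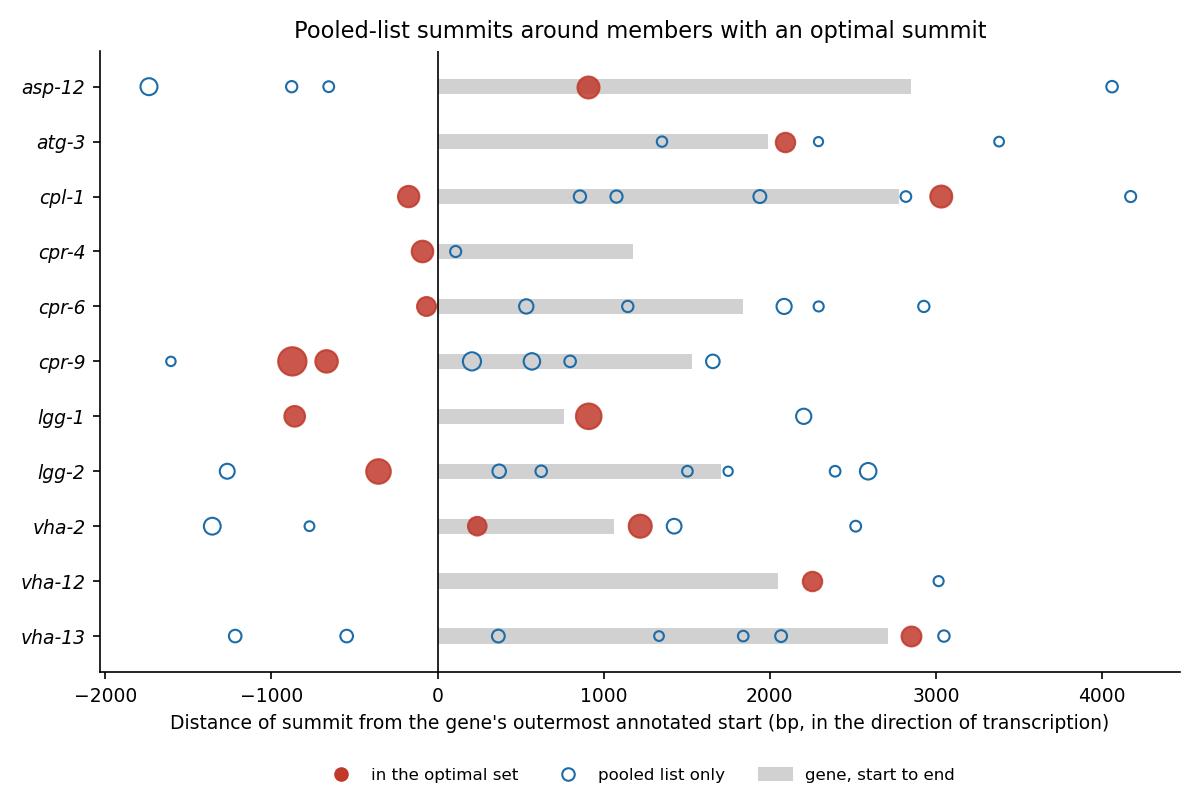
Summits of the pooled list around the 11 members with an optimal summit at the promoter or past the gene end, by distance in bp from the outermost annotated start, with larger circles for higher signal. Grey bars run from gene start to gene end, and the optimal summits (filled) of vha-12, vha-13 and atg-3 lie past the end of the bar, those of cpr-4 and cpr-6 lie close upstream of the start, and cpl-1 has 1 at each place.

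The proteases were counted by family, beside 4.2% of all protein-coding genes with an optimal summit and 45.6% with a pooled entry. Of the 8 cathepsin B-like cpr genes, 3 had an optimal promoter summit and 7 a pooled entry, with a median highest pooled signal of 67.1. The single cathepsin L-like gene, cpl-1, had both. Of the 17 aspartyl protease asp genes, whose products resemble cathepsin D, 1 had an optimal summit, near the share of all genes, and 11 a pooled entry, with a median of 37.4, next to 36.9 over all protein-coding genes with an entry. The genes of each family are paralogs, so their counts are not independent draws, and the difference between families was not tested.

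The highest protease entry lay at cpr-9, with a signal of 123 in replicate 1 (rank 155) and of 96.0 in replicate 2 (rank 171). This entry (chrV:12001969-12002388, ce11) ranked 175 in the optimal set with a signal of 205, 874 bp upstream of the gene, less than 100 bp from a tRNA gene, and 382 bp upstream of gcy-33, a guanylyl cyclase gene. A second optimal entry of cpr-9 overlapped it, 668 bp upstream, with rank 640 and a signal of 129, and replicate 2 held its own entry there with a signal of 69.6 (rank 456). In replicate 1 the nearest entry to both was the one at rank 155. Both optimal summits lay nearer to the start of gcy-33, at 382 bp and 588 bp, than to that of cpr-9. So neither entry can be given to cpr-9 from position alone. When summits were assigned to the nearest transcript start, cpr-9 had no optimal summit. The cathepsin B-like gene cpr-4 had a signal of 75.8 in replicate 1 (rank 590) and of 49.1 in replicate 2 (rank 1040), and ranked 738 in the optimal set with a signal of 119. Its summit lay 93 bp upstream and differed by 8 bp between the replicates. At cpr-6 the signal was 60.4 in replicate 1 (rank 993) and 37.1 in replicate 2 (rank 1894), and the optimal entry ranked 1281 with a signal of 91.7, 68 bp upstream. The entries matched to the optimal promoter summits of the 9 members were outside the highest 1489 of a replicate at cpr-6, in replicate 2, and at vha-2, in replicate 1.

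At cpl-1 the entry 174 bp upstream had a signal of 60.7 in replicate 1 (rank 978) and of 62.8 in replicate 2 (rank 599), and ranked 778 in the optimal set with a signal of 117. A further optimal summit lay 258 bp past the end of cpl-1, by a tRNA gene and in the promoter window of srh-269, with ranks of 1910 in replicate 1 and 373 in replicate 2. At asp-12 the entry had a signal of 56.9 in replicate 1 (rank 1118) and of 62.9 in replicate 2 (rank 595), and ranked 687 in the optimal set with a signal of 124. It lay 528 bp upstream of an inner asp-12 start, in an intron, and 905 bp downstream of the outer start. Replicate 2 thus ranked the entries at cpl-1 and asp-12 higher than replicate 1 did, while it ranked the cpr-6 entry lower. The 101 bases around 5 optimal protease summits are shown on the gene's strand (WBcel235), with the searched motifs in capitals, since these are the protease summits that held one, together with cpl-1, whose 2 summits held none.
cpr-4, chrV:6614531-6614631, plus strand: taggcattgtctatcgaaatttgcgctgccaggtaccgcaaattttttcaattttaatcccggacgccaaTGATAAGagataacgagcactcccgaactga
cpr-9, entry nearer the gene, chrV:12002335-12002435, plus strand: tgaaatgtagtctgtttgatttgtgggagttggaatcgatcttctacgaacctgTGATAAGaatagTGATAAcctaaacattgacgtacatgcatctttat
cpr-6, chrX:6607089-6607189, plus strand: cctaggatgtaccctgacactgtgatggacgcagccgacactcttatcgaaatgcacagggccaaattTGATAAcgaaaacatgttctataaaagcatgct
asp-12, chrV:8270065-8270165, plus strand: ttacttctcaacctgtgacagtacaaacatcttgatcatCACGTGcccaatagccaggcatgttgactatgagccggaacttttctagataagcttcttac
cpl-1, chrV:16595470-16595570, minus strand: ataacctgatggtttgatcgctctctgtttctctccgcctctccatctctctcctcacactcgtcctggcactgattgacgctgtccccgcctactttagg

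Below the optimal set the proteases went on with asp-3, a cathepsin D-like gene, at a pooled signal of 70.4 (rank 2118), with ranks of 2279 in replicate 1 and 1799 in replicate 2 at summits 827 bp apart. The pooled asp-3 summit also lay in the promoter window of sgca-1. The next were cpr-3 with a pooled signal of 67.1 (rank 2341) and cpr-1, a gut cysteine protease gene, with 60.0 (rank 3030). The cpr-1 entry ranked 3480 in replicate 1 and 5921 in replicate 2, and its summits lay 73 bp and 63 bp upstream. The gene asp-1 had a pooled signal of 44.8 (rank 6210), with summits at different places in the 2 replicates, 164 bp upstream in replicate 1 and 337 bp downstream in replicate 2. Of the proteases, asp-7, asp-8, asp-15, asp-17 and cpr-2 had no entry in any of the 4 lists. The lysosomal membrane gene lmp-1, which encodes a LAMP-like protein, had a pooled signal of 61.9 (rank 2797), 957 bp upstream, with ranks of 3297 in replicate 1 and 3625 in replicate 2. Its relative lmp-2 had a pooled signal of 32.9 (rank 13385). Neither was in the optimal set.

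The replicates were then compared member by member. An entry of any signal lay at 48 members in replicate 1, against 45.0% of all protein-coding genes, and at 48 in replicate 2, against 39.4%. Both replicates had one at 39 members, or 58.2%, against 28.4% of all protein-coding genes. The 1489 highest entries of each replicate gave 10 members in replicate 1, against 4.12% of all genes, and 10 in replicate 2, against 4.21%. Of these, 8 were among the highest in both, or 11.9%, against 2.71% of all genes, and those were the optimal members other than cpr-6. The count takes any entry of the window, and at vha-2 the replicates' highest entries lay 135 bp apart. Either replicate gave 12 members, or 17.9%, against 5.61% of all genes, and 3 of them had no optimal summit at the promoter and were high in 1 replicate. At vha-20 the signal was 71.8 in replicate 1 (rank 683) and 19.6 in replicate 2 (rank 10055). At cpr-3 it was 22.9 in replicate 1 (rank 11382) and 46.9 in replicate 2 (rank 1149). At vha-12 replicate 2 had an entry with a signal of 49.9 (rank 1000), 352 bp upstream, where neither replicate 1 nor the pooled list had any. Over the 39 members with an entry in both replicates, the highest signals had a Spearman rho of 0.565, and the same measure was 0.539 over 5665 genes. These values describe entries that share the same 2 libraries. The median distance between the replicates' summits was 135 bp over those members and 126 bp over those genes. Summits lay within 200 bp of each other at 22 of the 39 members, or 56.4%, against 59.3% of those genes.

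**Figure D3:**
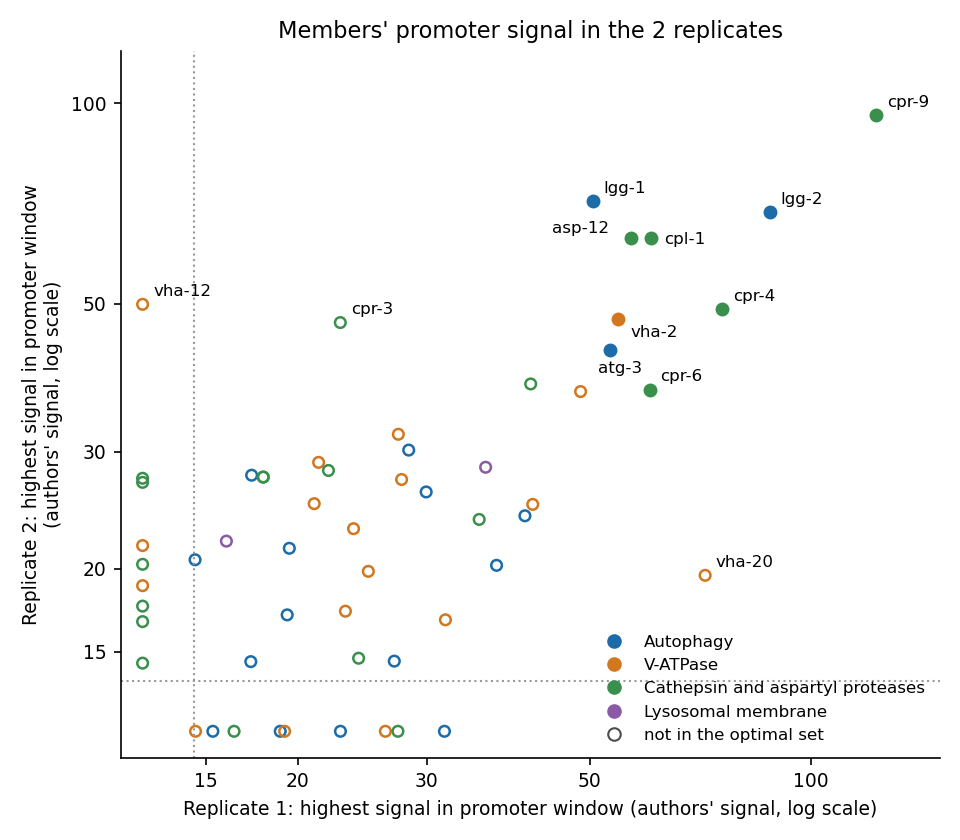
Highest signal in each member's promoter window in replicate 1 (horizontal) and replicate 2 (vertical), both on log scales, with members that lack an entry in a replicate drawn beyond the dotted line at that list's lowest signal. The 9 optimal members (filled) lie toward the upper right, while vha-20, cpr-3 and vha-12 are high in 1 replicate.

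Motifs were searched on both strands within 50 bp of each summit: TGATAAG, the DAF-16 associated element, TGATAA, the core of GATA-factor sites, which lies inside it, TGTTTAC and TATTTAC, the forms of the DAF-16 binding element, and CACGTG, the E-box read by helix-loop-helix factors such as the worm TFEB. At the highest optimal summits of the 9 members, TGATAAG was present in 1 (cpr-4), TGATAA in 2 (cpr-4 and cpr-6), CACGTG in 1 (asp-12) and either form of the binding element in 0. Over all 1489 optimal summits, TGATAAG was present in 8.66%, TGATAA in 19.5%, TGTTTAC in 4.1%, TATTTAC in 1.21% and CACGTG in 4.77%. Those 1489 were taken wherever they lay, 25 of them on the mitochondrial genome, while the 9 are each the highest of a promoter window. Of the 839 protein-coding genes with an optimal promoter summit, 105 held TGATAAG or a binding element at the highest one, against 1 of the 9 members. The members' 9 windows had a mean GC content of 46.5%, against 45.5% over all optimal windows. With so few members, 1 match more or less moves a share by 11.1 percentage points. The second cpr-9 entry held TGATAAG and a separate TGATAA, as printed above, and the lgg-1 summit past the gene end held TGTTTAC, printed there as its reverse complement. Below the optimal set, the members' highest pooled summits numbered 41, since cpr-5 and cpr-8 shared one, and 5 of them, or 12.2%, held TGATAAG, against 2.67% of the 28511 lower-ranked pooled summits, with a mean GC content of 39.2% around the 41 and 36.7% around the 28511. The 5 were asp-1, asp-9, cpr-1, cpr-3 and lmp-2. The 41 are each the highest entry of a promoter window, while the 28511 were taken wherever they lay in the genome. The 2 shares therefore come from unlike sets of summits. The windows of cpr-1 and cpr-3 are shown because both lie close upstream of cathepsin B-like genes, like that of cpr-4.
cpr-1, chrV:11975437-11975537, plus strand: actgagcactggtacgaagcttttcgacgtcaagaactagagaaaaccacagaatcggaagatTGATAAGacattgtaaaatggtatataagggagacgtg
cpr-3, chrV:15298797-15298897, minus strand: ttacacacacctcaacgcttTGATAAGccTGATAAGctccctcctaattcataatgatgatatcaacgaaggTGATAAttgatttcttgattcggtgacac

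The same motifs were then counted in promoters, whether or not an entry lay there, from 250 bp before to 50 bp after the outermost start of each gene. TGATAAG stood in 14 of the 26 protease promoters, or 53.8%, against 9.19% of all 19973 promoters of that length. It stood in 6 of 8 cpr promoters and 8 of 17 asp promoters. Among the autophagy promoters it stood in 0 of 19, and among the V-ATPase promoters in 1 of 20, that of vha-6, a V0 subunit gene of the intestine. The shorter TGATAA stood in 23 of 26 protease promoters, or 88.5%, in 3 of 19 autophagy promoters and in 4 of 20 V-ATPase promoters, against 30.2% of all promoters. The binding element TGTTTAC stood in 4 member promoters (atg-3, cpr-5, sqst-1 and vha-7), or 5.97%, against 4.77% of all promoters, and TATTTAC in 1 (atg-4.1), against 6.74% of all. CACGTG stood in 4 (atg-9, cpr-1, cpr-9 and epg-5), also 5.97%, against 5.82% of all. The protease promoters are not independent: asp-6 and asp-12 lie head to head, and each promoter holds the same 2 TGATAAG sites.

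**Figure D4:**
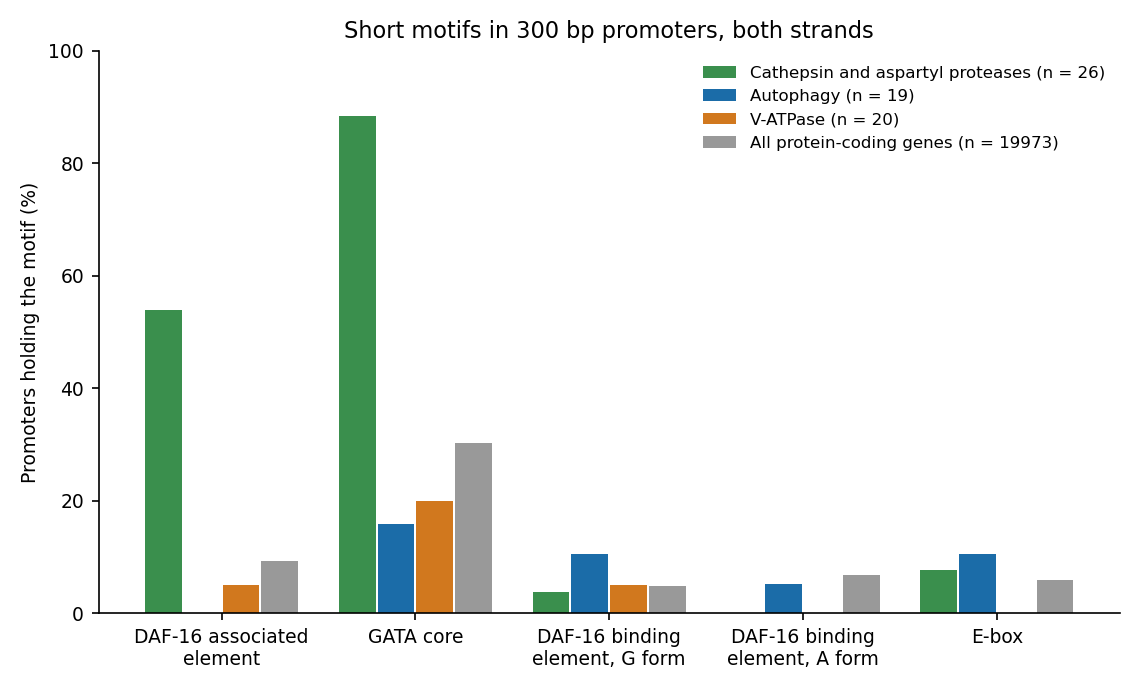
Share of 300 bp promoters holding each motif, for the 26 proteases, 19 autophagy genes, 20 V-ATPase genes and all 19973 protein-coding genes. The DAF-16 associated element is TGATAAG, present in 53.8% of protease promoters against 9.19% of all, and the GATA core is TGATAA, present in 88.5% against 30.2%.

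Letters and entries were set side by side. Of the 14 protease genes with TGATAAG in the promoter, 3 had an optimal summit and 12 a pooled entry. Of the 12 protease genes without it, 2 had an optimal summit and 7 a pooled entry. Over all protein-coding genes, the share with an optimal summit was 4.96% with TGATAAG and 4.12% without, and the share with a pooled entry was 51.2% with it and 45.0% without. A pooled summit lay within 200 bp of 12 of the 22 TGATAAG sites in member promoters. Sites were counted per gene, so the 2 shared by asp-6 and asp-12 count for each. The same share over the TGATAAG sites of all promoters was not computed, so the count is a description only. The sites of asp-4, asp-5, asp-6, asp-7, cpr-8 and vha-6 had none. Neither did those of asp-12 and cpr-9, whose optimal summits lay elsewhere in their promoter windows. Of the 3 proteases with both TGATAAG and an optimal summit, only cpr-4 had that summit within 200 bp of a site in the 300 bp promoter. The TGATAAG at the second cpr-9 summit lies further upstream.

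The other genes of the pathway came from a list of autophagy and lysosome genes outside the naming rule, of which 78 were matched by symbol and 2 were not. An optimal promoter summit lay at 3 of the 78, or 3.85%, against 4.2% of all protein-coding genes, a share near that of the genome. A pooled entry lay at 53, or 67.9%, against 45.6%. The 3 were epg-7, the gene of a scaffold protein for autophagy, at rank 879 with a signal of 111, ccz-1, whose product helps load RAB-7 onto endosomes, at rank 1148 with a signal of 97.7, and mtm-3, a myotubularin-type lipid phosphatase gene, at rank 1459 with a signal of 85.2. Of these, epg-7 ranked 1487 in replicate 1 and 746 in replicate 2, and ccz-1 ranked 1799 in replicate 1 and 1195 in replicate 2. The highest entries in the mtm-3 window ranked 9266 in replicate 1 and 3221 in replicate 2, at 427 bp and 449 bp downstream of a start. The optimal mtm-3 summit lay elsewhere, 997 bp upstream at the window's edge, so these are not shown to be its own replicate ranks. By the highest entry of the window, only epg-7 was among the highest 1489 in both replicates. hlh-30, the worm TFEB gene and a known regulator of autophagy and lysosome genes, had a pooled signal of 76.9 at rank 1757, outside the optimal set, with a signal of 27.3 in replicate 1 (rank 7143) and of 47.3 in replicate 2 (rank 1129).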

How the data were processed

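Chromatin immunoprecipitation of GFP-tagged DAF-16 was analysed in 2 replicates of 1 group, grouped per the labels. The authors deposited peak lists (narrowPeak layout) for each replicate, the pooled replicates and the optimal set on the builds ce10 and ce11, and only the ce11 lists were used. The deposited signal per entry has no stated scale and ranked entries within a list. Which aligner, caller and cutoff were used is not given in the sources used here, and no control library was analysed here. The lists hold no counts, so depth is unknown and intervals cover counting error only.

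Summits (start plus summit offset) were assigned to 29784 transcript starts of nuclear protein-coding genes (Ensembl release 115 on WBcel235, the same assembly as ce11), and sequences were read from the RefSeq WBcel235 genome. Python 3.11.15, numpy 2.4.6, scipy 1.17.1, pandas 2.3.3 and matplotlib 3.10.9 were used, and the assignment was tested on simulated summits. Intervals are exact (Clopper-Pearson).

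The members and lists were chosen with earlier results of these data known, so members are described by counts and medians beside all protein-coding genes, with no test. Named members were those with an optimal promoter summit, those among the highest 1489 entries of a replicate, the 2 highest others of each family by pooled signal, and bec-1, unc-51, epg-5, sqst-1, lgg-1, lgg-2, cpl-1, lmp-1 and hlh-30, with each optimal gene of the pathway list. Members past a gene end, with a motif or without any entry were named after their values were seen. Alternatives changed the promoter window, the assignment, the transcripts, the number of entries, the motif window and the replicates.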

Additional observations from a re-analysis of the deposited data

How the results depend on the processing

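No paired analysis was possible because both replicates belong to 1 group. Over 55 alternatives for the counts, 42 stayed within 1.5 times the value given and 13 moved further. With a window reaching 2000 bp upstream, 14 members had an optimal summit (5.69% of all genes) and 5 pathway genes had one. In that window 16 members were among the highest of replicate 2 (5.72% of all genes). With only the 744 entries of highest signal, 4 members (1.91% of all genes) and 0 pathway genes had an optimal summit. The members then numbered 4 in replicate 1 (1.83%), 5 in replicate 2 (1.98%) and 3 past the gene end (0.791%). With replicate 1 alone in place of the optimal set, 10 members (4.12% of all genes) and 3 pathway genes had a summit. With replicate 2 alone, 10 members (4.21%) and 6 pathway genes did. The members with TGATAAG or a binding element at the summit numbered 1 (0.486%) in replicate 1 and 2 (0.571%) in replicate 2. The members with a summit past the gene end, whatever its motifs, numbered 9 (1.91%) in replicate 1 and 7 (1.71%) in replicate 2. In place of the pooled list, replicate 1 gave 48 members with an entry of any signal (45.0%) and replicate 2 gave 48 (39.4%). Without replicate 1 the 6 pathway genes were asm-2, ccz-1, cpz-1, epg-7, hlh-30 and mxl-3. A motif window of 25 bp left 0 members with TGATAAG or a binding element at the optimal summit (0.21% of all genes). Counting any optimal summit of a gene gave 2, cpr-4 and cpr-9 (0.556% of all genes). A promoter of 100 bp before the start held TGATAAG in 9 proteases (5.01% of all genes). The last 2 settings and all those past the gene end were chosen after the data were seen. So was the use of only the outermost start of each gene, which is among the 11 alternatives for single members. Of the 9 optimal members, cpr-4 and lgg-2 kept their summit under 11 of 11 alternatives and atg-3 under 7. The cause of these shifts was not tested. With 2 replicates, no read counts and no control library analysed here, the lists limit what can be said of any single entry.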

Other observations

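Chromosome V held 26 of the 67 members and 4994 of the 19973 protein-coding genes. Of those members, 4 had an optimal promoter summit (cpr-4, cpr-9, cpl-1 and asp-12), against 3.14% of the chromosome's protein-coding genes. Chromosome IV held 14 members, of which 2 had one (lgg-2 and atg-3), against 4.05% of its genes, and chromosome X held 11, of which 1 had one (cpr-6), against 5.38%. The 4 members on chromosome I had none, against 4.52%. Several pooled entries lay in the promoter window of 28 of the 51 members with an entry, against 3355 of the 9109 protein-coding genes with an entry. The mean number of entries was 1.78 per such member, against 1.52 per such gene.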
